A study of Mus musculus with 9 samples.

Results

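The genes described here are the potassium channel subunit genes of mouse spinal cord, taken as every gene whose symbol starts with Kcn except Kcnj10. That rule found 98 of the 34745 genes in the deposited table. By role they fell into 15 subfamilies of channel-forming or accessory subunits, with 6 further Kcn-named genes. The latter are the antisense RNAs Kcnq1ot1, Kcnab3os, Kcnd3os, Kcnmb4os1 and Kcnmb4os2 and the protein-coding gene Kcnrg. The samples were spinal cord tissue of mice at 3 times: day 0, day 3 and day 21 after the cord had been cut completely at T9, with 3 RNA-seq libraries at each time. The day 0 libraries are titled N without an explanation and were taken as day 0 because the design names that time. The labels and design give no strain, sex, age, stretch of cord or sham surgery. They also do not say whether each library came from its own animal, so the p-values below measure spread among libraries, and that spread may be technical.

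Potassium channels let potassium leave the cell and so pull the membrane back towards its resting voltage. Voltage-gated (Kv) channels open on depolarisation and set the width and rate of action potentials, calcium- and sodium-activated channels shape the pause after a spike, and inward rectifiers and tandem-pore (K2P) leak channels hold the resting potential. Each pore is built from alpha subunits, and beta, KChIP and MinK-related subunits change where the channel goes and how it gates. Neurons of the cord use many of these subunits together, while glia, immune cells and vessel walls use smaller sets, such as the calcium-activated channel Kcnn4 in leukocytes and the KATP pore Kcnj8 in pericytes.

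Levels are given as FPKM, which is the authors' read count scaled by gene length and by the library total, with the mean ± SD over 3 libraries. Log2 fold changes, with their SE, and adjusted p-values are from edgeR's quasi-likelihood test on counts, and a gene was called at an adjusted p under 0.05 over the 16494 genes tested. Total counts ranged from 14299679 to 24022923 per library. Day 21 replicate 2 stood apart from the rest: its log2 CPM correlated at 0.943 and 0.935 with the other day 21 libraries, which correlated at 0.987 with each other. The counts of called genes are therefore given with and without it, as are calls against day 0 of the genes named below that are made or lost without it. The day 0 libraries held the markers of cord tissue, with summed means of 2673 FPKM for neurons, 2157 for oligodendrocytes and 941 for astrocytes. The marker lists used here and below were chosen with earlier results of these data known. All 10 pan-neuronal markers were lower at day 3 (median log2 fold change -1.02), beside 19.5% of all genes tested. Their summed level went from 2661 to 2679 FPKM at day 0 to 1326 to 1336 at day 3 and 1715 to 1940 at day 21. Summed FPKM of monocyte and macrophage markers went from 26 to 28.3 at day 0 to 659 to 669 at day 3 and 464 to 689 at day 21. In bulk tissue, fewer cells of a type and less RNA per cell cannot be told apart, and the part of these marker shifts in the potassium channel results was not tested.

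Of the 98 genes, 80 were tested and 18 were too low to test, the highest group mean among the latter being 0.303 FPKM. Kcnj1 and Kcnmb3 had no count in any library. In 63 genes the mean reached 1 FPKM in at least 1 group, and in 18 it reached 10 FPKM at day 0. Among the abundant ones at day 0 were Kcnab2 at 65.8 FPKM, Kcnk1 at 51.4 and Kcnab3 at 45.0. Summed over all 98 genes the level was 948 ± 50.6 FPKM at day 0, 424 ± 6.42 FPKM at day 3 and 596 ± 52.5 FPKM at day 21, and the 3 groups did not overlap (897 to 998, 417 to 429 and 537 to 638 FPKM). Every summed subfamily in the plot of subfamily totals had its lowest mean at day 3, with the exception of the MinK-related subunits, which had their highest there.

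**Figure D1:**
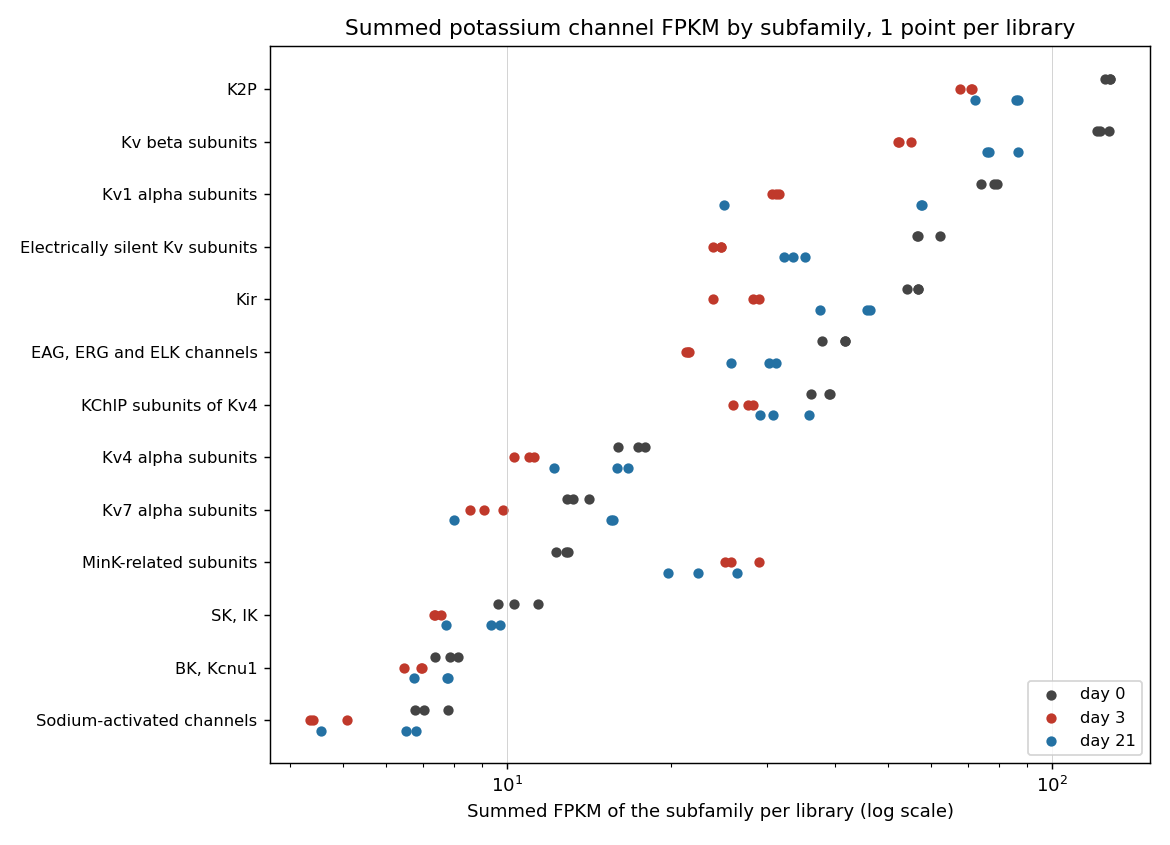
Summed FPKM of each potassium channel subfamily (rows) on a log axis, with 1 point per library coloured by day. Kv beta subunits hold 121 to 127 FPKM at day 0 against 52.2 to 55.0 at day 3, and MinK-related subunits are the row in which day 3 lies to the right of day 0.

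At day 3, most changed potassium channel genes were lower than at day 0. Of 80 tested genes, 42 fell and 10 rose, so 65% were called, against 44.3% of all genes tested (19.5% lower and 24.8% higher). The median log2 fold change was -0.74 over the 80 genes and 0.0081 over all genes tested. In 66 of the 80 the FPKM of the day 3 and day 0 libraries did not overlap, which held for 67.5% of all genes tested. All 3 Kv beta subunits and all 4 KChIP subunits fell, as did 8 of 10 tested K2P channels. The 10 genes that rose were Kcnk6, Kcnk5, Kcnj2, Kcnj8, Kcnj15, Kcne1l, Kcne4, Kcnn4, Kcnq1 and Kcnmb1.

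At day 21, 27 of the 80 tested genes were lower than at day 0 and 10 were higher. That is 46.25% called, against 29.2% of all genes tested (11.3% lower and 17.9% higher), with a median log2 fold change of -0.44 against 0.018 over all genes. FPKM of the day 21 and day 0 libraries did not overlap in 47 of the 80, against 41.3% of all genes tested. The day 3 and day 21 comparisons share the day 0 libraries, so their fold changes are given side by side and not as support for each other. Without day 21 replicate 2 the counts were 33 lower and 12 higher at day 21, beside 22.4% and 25.1% of all genes (47.5% either way). At day 3 they were 53 lower and 11 higher, beside 29.2% and 32.0% of all genes (61.2% either way). Without day 0 replicate 3 the number higher at day 21 was 6, beside 2262 of all 16774 genes tested.

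Between day 3 and day 21, 22 of the 80 tested genes rose and 6 fell, or 35% called against 27.8% of all genes tested (11.7% higher and 16.1% lower). The median log2 fold change was 0.39, against 0.016 over all genes, and the libraries did not overlap in 40 of the 80, against 44.4% of all genes. Of the 42 genes lower at day 3, 38 had a day 21 mean between those of day 3 and day 0, 2 had reached or passed the day 0 mean and 2 were at or under the day 3 mean. Of the 10 genes higher at day 3, 9 had a day 21 mean in between. Kcnj2 was the other one, with its highest values at day 21. Both sets were picked by the same day 3 and day 0 libraries, so a day 21 mean in between is partly expected from the choice. The matching share over all genes was not computed. Without day 21 replicate 2 the comparison of day 21 with day 3 gave 45 higher and 10 lower genes, beside 23.5% and 25.7% of all genes (49.3% either way). Without day 3 replicate 1 it gave 13 higher, beside 1006 of all 16723 genes tested.

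**Figure D2:**
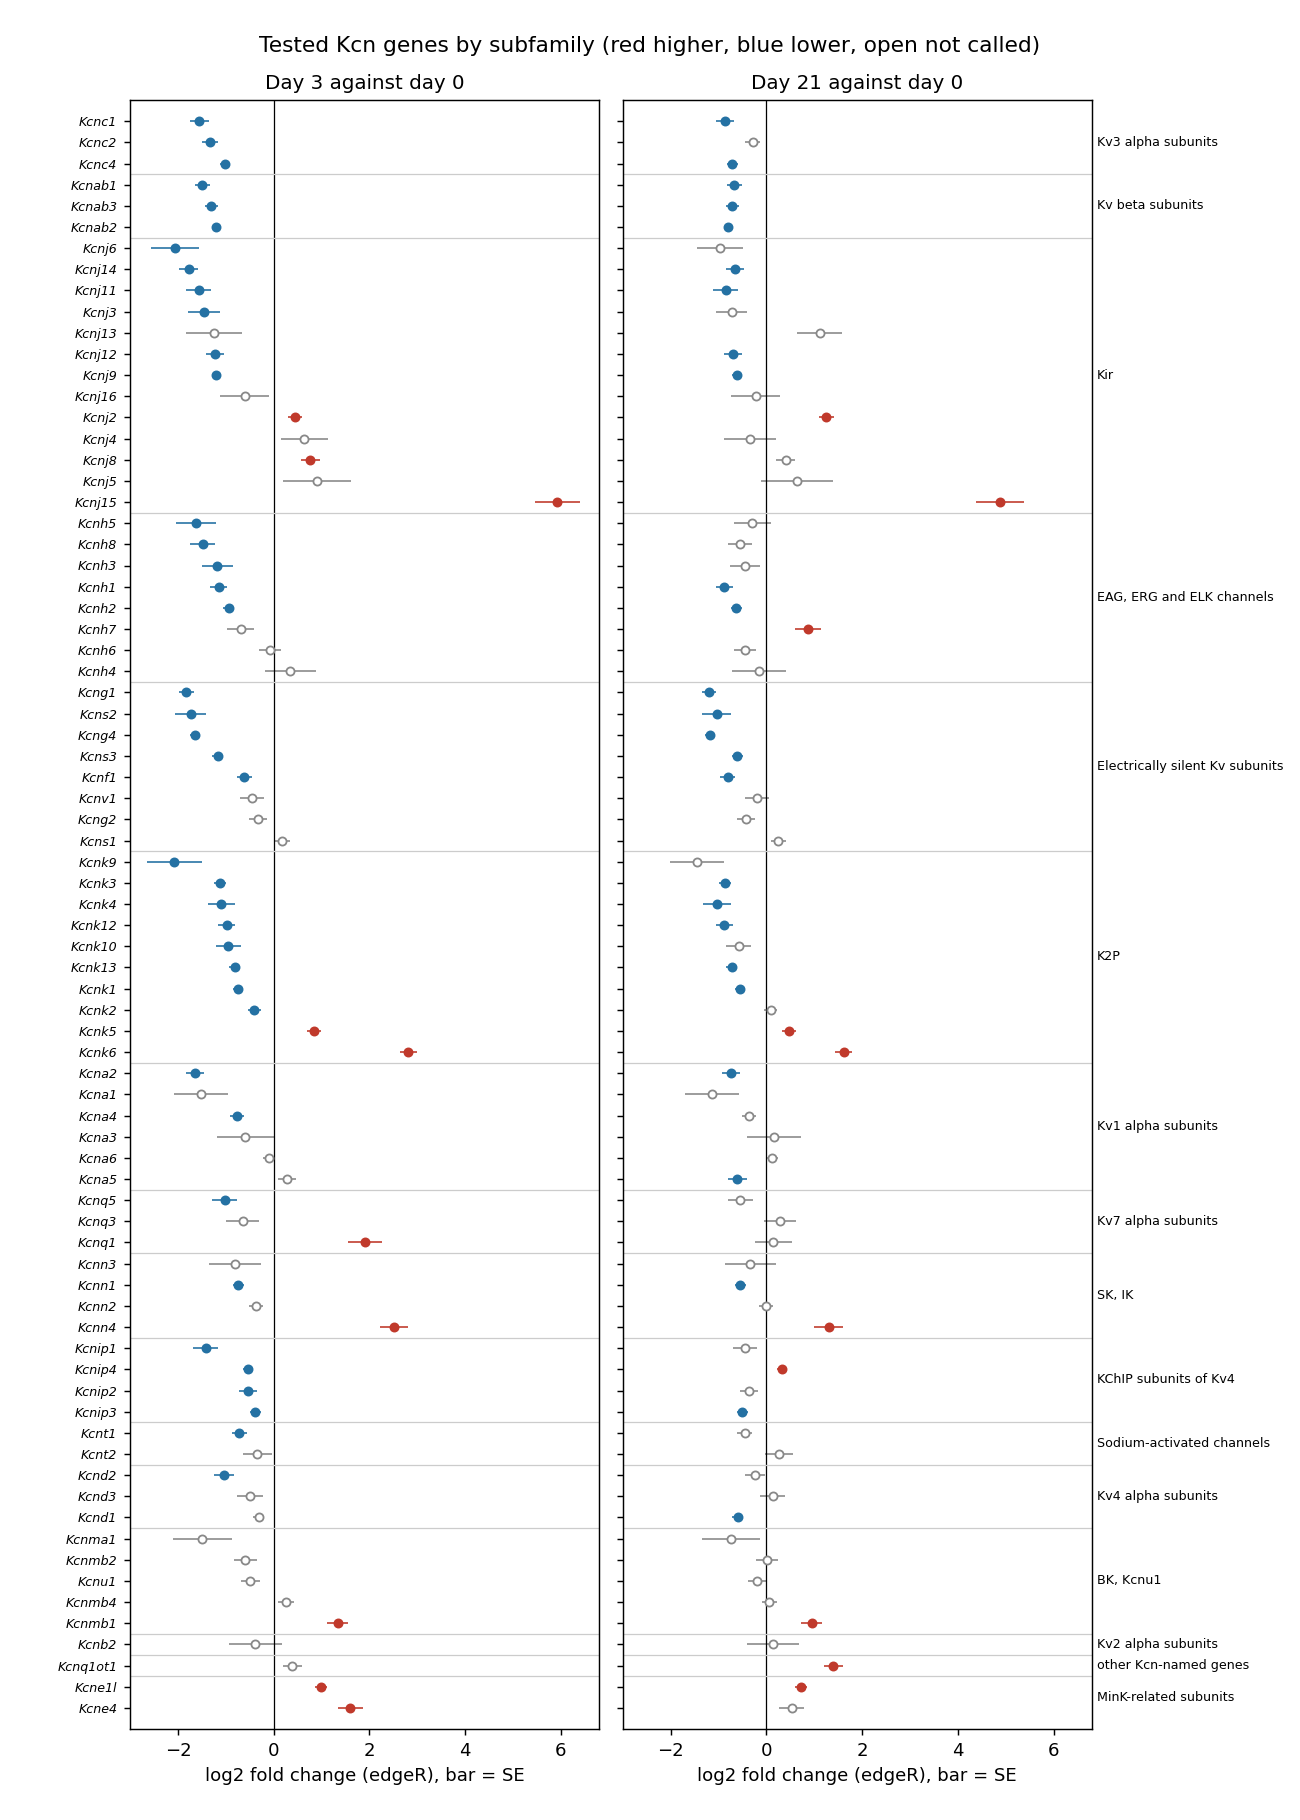
Log2 fold change with its SE for each tested gene (rows, grouped by subfamily), at day 3 (left) and day 21 (right) against day 0. Filled blue points were called lower, filled red points, 10 at each time, were called higher, and open points were not called.

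Promoter windows of 300 bases (250 before to 50 after the annotated start) were read from RefSeq, build GRCm38.p6, for the 71 genes that the table covers. Shown are 2 genes that rose, Kcnn4 and Kcnj2, and 2 that fell, Kcnc1 and Kcng4. Capitals mark the GC box, GGGCGG or its reverse complement CCGCCC, a motif bound by Sp family factors.
Kcnn4: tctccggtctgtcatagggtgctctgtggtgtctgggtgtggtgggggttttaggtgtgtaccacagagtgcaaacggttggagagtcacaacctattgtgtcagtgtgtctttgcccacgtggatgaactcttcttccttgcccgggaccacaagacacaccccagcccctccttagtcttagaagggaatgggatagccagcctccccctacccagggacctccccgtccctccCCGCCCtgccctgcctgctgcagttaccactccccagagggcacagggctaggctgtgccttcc
Kcnj2: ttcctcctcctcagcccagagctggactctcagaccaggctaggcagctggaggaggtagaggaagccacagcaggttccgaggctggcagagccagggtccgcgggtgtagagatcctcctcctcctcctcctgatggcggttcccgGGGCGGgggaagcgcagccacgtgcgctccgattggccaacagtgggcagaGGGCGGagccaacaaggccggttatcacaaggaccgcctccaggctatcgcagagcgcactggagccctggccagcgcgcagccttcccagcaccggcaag
Kcnc1: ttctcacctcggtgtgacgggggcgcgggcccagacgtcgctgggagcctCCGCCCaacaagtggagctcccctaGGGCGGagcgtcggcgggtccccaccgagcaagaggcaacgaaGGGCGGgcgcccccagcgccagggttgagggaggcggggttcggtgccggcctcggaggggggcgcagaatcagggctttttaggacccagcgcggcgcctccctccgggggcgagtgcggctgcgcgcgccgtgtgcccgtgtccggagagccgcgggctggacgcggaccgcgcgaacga
Kcng4: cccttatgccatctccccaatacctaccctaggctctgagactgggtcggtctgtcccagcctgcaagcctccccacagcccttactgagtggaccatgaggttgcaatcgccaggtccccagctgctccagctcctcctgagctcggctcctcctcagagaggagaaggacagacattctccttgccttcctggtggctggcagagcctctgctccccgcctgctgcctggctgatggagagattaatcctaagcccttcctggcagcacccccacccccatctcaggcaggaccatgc
The windows lie at chr7:24370013-24370312 (plus strand, Kcnn4), chr11:111065914-111066213 (plus, Kcnj2), chr7:46396218-46396517 (plus, Kcnc1) and chr8:119635631-119635930 (minus, Kcng4), with 1, 2, 3 and 0 GC boxes. Of the 96 windows of potassium channel genes (some genes have several starts) 46.9% held a GC box, against 35.7% of all 32851 windows. The share was 50% of the 8 windows of genes higher at day 3 and 49.0% of the 51 windows of genes lower at day 3. No test was made of these shares. TATAAA was found in 5.21% of the 96 windows and 13.6% of all, the AP-1 motif TGANTCA in 4.17% and 7.81%, the PU.1 core GAGGAAG in 14.6% and 13.6%, and the CRE TGACGTCA in 0% and 1.79%, on both strands. Median GC content was 58% in these genes and 52.7% in all windows. A match describes the letters only.

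Kv3 alpha subunits such as Kcnc1 and Kcnc2 form fast delayed rectifiers that let interneurons and motoneurons fire at high rates. Kcnc1 had 30.9, 37.1 and 35.1 FPKM at day 0, 12.3, 11.8 and 12.3 at day 3, and 24.5, 14.6 and 22.3 at day 21. All day 3 values were under all others, and the day 21 spread came from the low replicate 2. It fell at day 3 (-1.55 ± 0.19, edgeR adjusted p = 0.000191) and was still lower at day 21 (-0.87 ± 0.19, 0.00899). Its rise from day 3 to day 21 (0.68 ± 0.19, 0.0269) was lost when any 1 day 3 library, or day 21 replicate 1 or 3, was left out (adjusted p 0.0752 to 0.0904, within 3.73e-07 to 0.0904 over all alternatives). Kcnc2, known from fast-spiking interneurons, went from 7.72, 6.61 and 6.61 FPKM to 3.09, 2.82 and 2.68 and back to 6.89, 4.72 and 7.0. Its day 21 range overlapped day 0, and it rose by 1.05 ± 0.17 from day 3 (0.00221) while the day 21 difference from day 0 was not called (-0.29 ± 0.17, 0.227). Kcnc4 fell at day 3 and at day 21 (-1.01 and -0.71), with 35.3 ± 2.78, 18.1 ± 1.12 and 23.5 ± 0.903 FPKM at the 3 times.

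**Figure D3:**
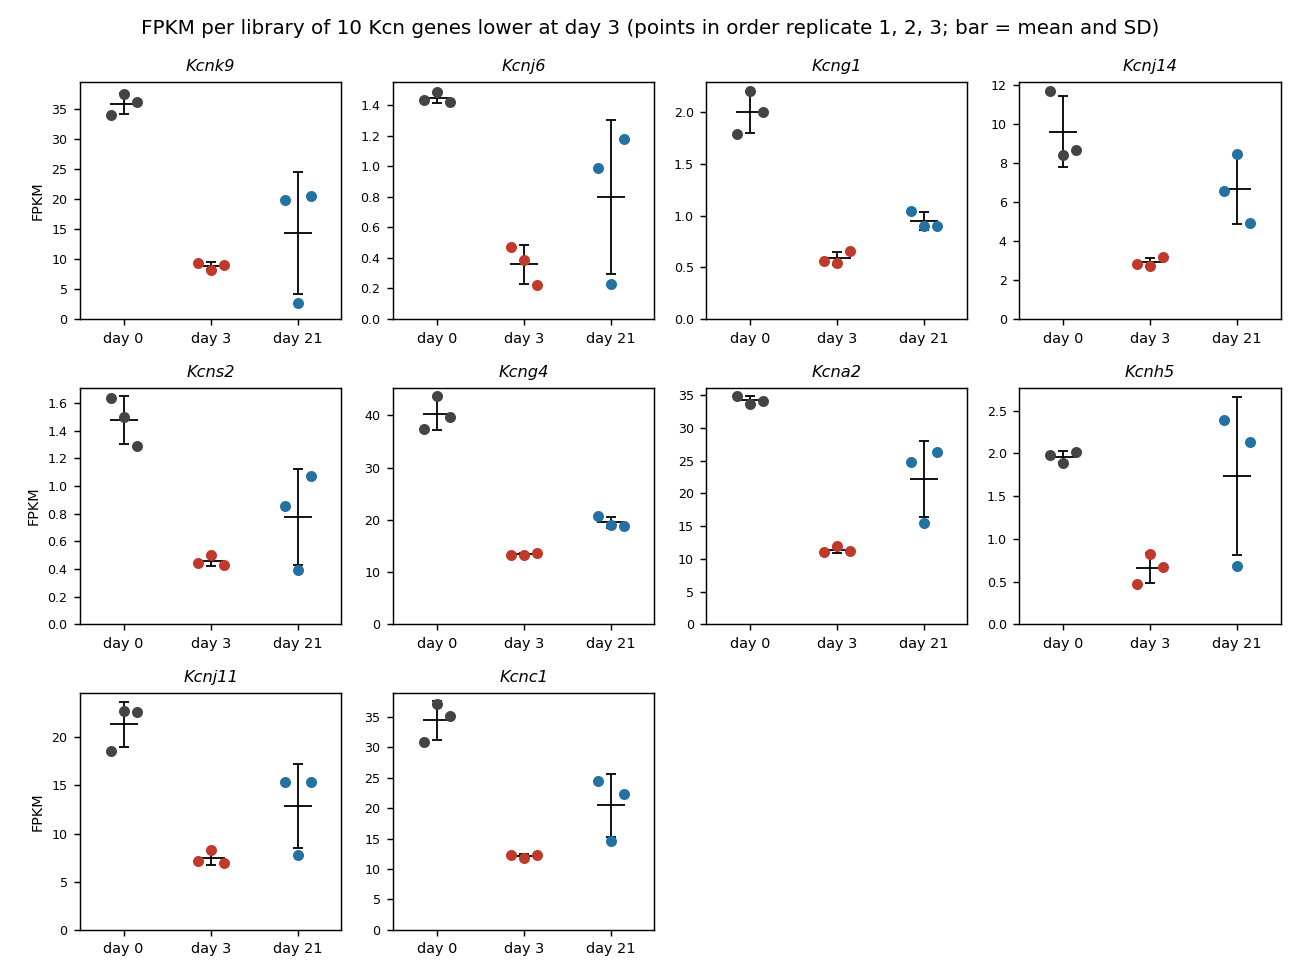
FPKM in each library for 10 of the genes with the largest falls at day 3 among those at 1 FPKM or more in a group, with black bars for the mean and SD of 3 libraries. All 10 have their lowest mean at day 3, and day 21 replicate 2, the middle blue point, lies far under its neighbours in Kcnk9, Kcnj6 and Kcnh5.

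Kv1 alpha subunits are the low-voltage-activated channels of axons and of the juxtaparanode beside the node of Ranvier, and Kv beta subunits bind their inner face. Kcna2 stood at 34.9, 33.7 and 34.1 FPKM at day 0, 11, 11.9 and 11.3 at day 3, and 24.8, 15.5 and 26.3 at day 21. The groups did not overlap, and the change was -1.64 ± 0.19 at day 3 (edgeR adjusted p = 0.000116), -0.75 ± 0.19 at day 21 (0.0158) and 0.89 ± 0.19 between the later days (0.00764). Kcna1, its usual partner in the heteromer, had 32.4, 38.2 and 37.5 FPKM at day 0, 13.5, 13.2 and 12.7 at day 3, and 25.7, 3.56 and 24.1 at day 21. Day 3 lay wholly under day 0, yet the fall of -1.51 ± 0.56 was not called (0.0553) in the fit, in which all groups share 1 estimate of the spread. Without day 21 replicate 2, whose 3.56 FPKM is 0.143 of the mean of the other day 21 libraries, the same fall gave an adjusted p of 1.78e-07, and day 21 was lower by -0.65 (0.000345, against 0.162 with it).

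The remaining Kv1 genes were low. Kcna4, an A-type subunit, fell at day 3 (-0.76 ± 0.15, edgeR adjusted p = 0.00258). Kcna5, which microglia and muscle also use, measured 2.04, 2.37 and 2.32 FPKM at day 0, 3.28, 2.69 and 2.51 at day 3, and 2.00, 1.37 and 1.44 at day 21. Among the tested Kv1 genes it was the one with its highest mean at day 3, and it fell from day 3 to day 21 (-0.88 ± 0.20, 0.0102). Its fall from day 0 to day 21 (-0.60 ± 0.20, 0.0467) was lost in 8 of 9 fits that left out a library (0.0569 to 0.13), all except that without day 21 replicate 1. Kcna6 stayed at 2.31 ± 0.196, 2.25 ± 0.204 and 2.73 ± 0.375 FPKM and was not called, but 39.6% of its exon bases overlap the antisense gene Gm26673, so it is uncertain, since no label or header says whether reads were counted by strand. Kcna7, a muscle Kv1 subunit, had no count at days 0 and 3 and 27 counts at day 21, at least 11.6-fold higher than day 0 and at least 9.88-fold higher than day 3 with a floor of 3 counts over the group. Skeletal muscle markers were highest at the same time, with a summed 141 to 275 FPKM at day 21 against 62.4 to 79.8 at day 0 and 32.7 to 36.6 at day 3. Pvalb held most of the earlier sums (means of 54.3 of 69.4 FPKM at day 0 and 27.0 of 34.2 at day 3). It was not called at day 21 against day 0 (-0.06, edgeR adjusted p = 0.914). At that time 7 of the 8 markers were called higher, beside 17.9% of all genes tested. The part of these markers in the Kcna7 counts was not tested.

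All 3 Kv beta subunit genes fell at day 3, were lower at day 21 than at day 0 and rose in between. The shares of all genes tested with these calls were 19.5%, 11.3% and 11.7%. Kcnab2, the most abundant Kv beta gene, had 65.8, 66.6 and 65.2 FPKM at day 0, 29.5, 30.5 and 29.1 at day 3, and 39.9, 42.8 and 40.4 at day 21. Its replicates were tight and the days well apart (-1.20 ± 0.08 at day 3, edgeR adjusted p = 3.49e-06, -0.81 ± 0.08 at day 21, 0.000111, and 0.40 ± 0.08 between, 0.00628). Kcnab3 averaged 45.0, 18.8 and 30.0 FPKM and Kcnab1 12.6, 4.66 and 8.62 FPKM at the 3 times. The Kcnab3 rise from day 3 to day 21 (0.60 ± 0.14, 0.011) had an adjusted p of 0.0513 without day 3 replicate 1, the highest over its alternatives (lowest 9.32e-05). Kcnab1 at day 21 (-0.67 ± 0.16, 0.0119) was not called when only the 2 groups were fitted (0.0504, range from 7.75e-05).

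Kv2 channels carry much of the delayed rectifier current at the soma, and the silent subunits (Kcnf1, Kcng, Kcns and Kcnv genes) do not form channels alone but join Kv2 to change its gating. Among the silent subunits 5 of 8 tested genes fell at day 3 and 5 were lower at day 21, beside 19.5% and 11.3% of all genes tested. Kcng4 (chr8:119623854-119635680, GRCm38), reported in fast motoneurons, had 37.4, 43.8 and 39.7 FPKM at day 0, 13.3, 13.2 and 13.7 at day 3, and 20.7, 19.0 and 18.8 at day 21. Its groups did not overlap, and it changed by -1.64 ± 0.11 at day 3 (edgeR adjusted p = 3.41e-06) and -1.17 ± 0.11 at day 21 (7.24e-05). Kcng1 went from 1.80, 2.21 and 2.01 FPKM to 0.565, 0.539 and 0.658 and then 1.04, 0.903 and 0.898, with no overlap (-1.82 ± 0.16, 1.73e-05, and -1.20 ± 0.15, 0.000491). The rises from day 3 to day 21 of Kcng4 (0.47, 0.011) and Kcng1 (0.62, 0.0185) were lost without day 3 replicate 1 or 2, and for Kcng1 also without day 21 replicate 1 (up to 0.0509 for Kcng4 and 0.0783 for Kcng1, from 4.61e-05 and 0.0019 over all alternatives).

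Kcns2 stood at 1.63, 1.5 and 1.29 FPKM at day 0, 0.442, 0.499 and 0.431 at day 3, and 0.859, 0.394 and 1.07 at day 21. Day 3 was under all day 0 values (-1.73 ± 0.32, edgeR adjusted p = 0.002), and at day 21 replicate 2 alone was as low as day 3. Its day 21 call (-1.04 ± 0.31, 0.0323) was lost in 7 fits without 1 library, all but those without day 21 replicate 2 or 3 (0.0508 to 0.088, with 0.00314 to 0.0885 over all alternatives). Kcnf1 had 2.19, 2.17 and 1.60 FPKM at day 0, 1.28, 1.35 and 1.41 at day 3, and 1.22, 1.15 and 1.33 at day 21. It was lower at both times (-0.61 ± 0.15, 0.0105, and -0.81 ± 0.16, 0.00451) and did not rise again. Kcns1, the silent subunit of sensory neurons, was not called in any comparison (3.20 ± 0.281, 3.75 ± 0.41 and 4.15 ± 0.739 FPKM).

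Kv4 channels carry the A-type current of dendrites, and KChIPs are their calcium-binding partners. Kcnd2 measured 9.82, 10.3 and 10.5 FPKM at day 0, 5.19, 5.11 and 5.2 at day 3, and 10.5, 6.31 and 11.5 at day 21. It fell at day 3 (-1.04 ± 0.21, edgeR adjusted p = 0.00314) and its day 21 values overlapped day 0 (-0.23 ± 0.20, 0.436). The rise from day 3 (0.80 ± 0.21, 0.0195) was lost without any 1 day 3 library or day 21 replicate 1 or 3 (0.0613 to 0.0677, with 6.01e-07 to 0.0677 over all alternatives). Kcnd1 had 5.82 ± 0.623, 4.87 ± 0.261 and 4.19 ± 0.0472 FPKM, and its 3 groups did not overlap. It was lower at day 21 (-0.60 ± 0.12, 0.00517) and not called at day 3 (-0.31 ± 0.12, 0.0578), where it was called without day 21 replicate 2 (-0.31, 0.0183). The difference between the later days was not called either way (-0.29 ± 0.12, 0.101, and -0.27, 0.0713).

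All 4 KChIP genes fell at day 3, beside 19.5% of all genes tested, and then parted. Kcnip3, also known as the repressor DREAM, had 23.9, 26.2 and 27.3 FPKM at day 0, 20.8, 20.6 and 20.2 at day 3, and 19.6, 22.6 and 17.4 at day 21. The falls were small (-0.38 ± 0.12, edgeR adjusted p = 0.0263, and -0.50 ± 0.12, 0.012). The first was lost without day 0 replicate 2 or 3 or any 1 day 3 library (0.0733 to 0.0967, range from 5.16e-05) and the second without day 0 replicate 3 (0.0526, with 2.89e-05 to 0.0617 over all alternatives). Kcnip4 ran the other way later, with 3.27, 3.75 and 3.56 FPKM, then 2.55, 2.46 and 2.57, then 4.75, 4.75 and 4.95. Its 3 groups did not overlap, day 3 being lowest and day 21 highest, and the rise between the later days was 0.86 ± 0.11 (0.000519). Its excess at day 21 over day 0 (0.32 ± 0.11, 0.0458) was lost in 8 of 9 fits without 1 library, all but that without day 21 replicate 2 (0.0651 to 0.108, with 0.00656 to 0.159 over all alternatives).

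Kcnip1 had 6.03, 6.93 and 6.08 FPKM at day 0, 3.02, 2.98 and 1.37 at day 3, and 4.75, 5.65 and 4.92 at day 21. Its day 3 values were the lowest, with replicate 3 less than the other day 3 libraries (-1.42 ± 0.26, edgeR adjusted p = 0.00196), and it rose by 0.98 ± 0.26 to day 21 (0.0218, with 0.00222 to 0.0939 over all alternatives). Kcnip2 was at the threshold at day 3 (-0.53 ± 0.19, 0.0498), and 7 of 9 fits without 1 library did not call it, with day 21 replicates 1 and 2 the exceptions (0.0573 to 0.171, range from 0.00177). At day 21 it was called lower without replicate 2 of that day (-0.60, 0.00621) and not with it (0.185).

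Kv7 channels give the M-current that restrains repetitive firing, and MinK-related subunits modulate them. Kcnq3, a subunit of the neuronal M-channel, showed 4.27 ± 0.101, 2.83 ± 0.192 and 5.64 ± 2.76 FPKM and no call with all libraries. Without day 21 replicate 2 it was called lower at day 3 (-0.65, edgeR adjusted p = 6.06e-05) and higher at day 21 (0.64, 0.000256), the latter with 6.72 and 7.69 FPKM. Kcnq5 fell at day 3 (-1.02 ± 0.26, 0.012).

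Of the 5 MinK-related genes, 2 were tested and both rose at day 3, Kcne1l and Kcne4, beside 24.8% of all genes tested. Kcne1l (chrX:142304752-142306294), also called Kcne5, had 12.3, 11.9 and 12.5 FPKM at day 0, 24.6, 23.6 and 27.6 at day 3, and 21.8, 25.5 and 19.1 at day 21. Both later groups lay wholly above day 0 and overlapped each other (0.99 ± 0.12, edgeR adjusted p = 0.000191, and 0.73 ± 0.12, 0.00256). It was the most abundant of the 10 genes that rose at day 3. Kcne4 had 0.475, 0.270 and 0.279 FPKM, then 0.862, 1.17 and 1.23, then 0.440, 0.615 and 0.579. It rose at day 3 alone (1.60 ± 0.26, 0.000924), and its fall by day 21 (-1.07 ± 0.25, 0.0135) was lost without day 3 replicate 2 or 3 or day 21 replicate 1 (0.0507 to 0.0546, range from 0.00114). Kcnq1, which pairs with MinK-related subunits in epithelia, was low but rose from 0.194 ± 0.0599 to 0.755 ± 0.0516 FPKM (1.91 ± 0.35, 0.00199) and was back at 0.236 ± 0.119 at day 21.

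The antisense RNA Kcnq1ot1 lies inside Kcnq1 on the other strand and shares 2.96% of the Kcnq1 exon bases. Kcnq1ot1 was higher at day 21 (1.40 ± 0.20, edgeR adjusted p = 0.000931), when Kcnq1 was not. Its FPKM of 0.0584 ± 0.00254, 0.0791 ± 0.0122 and 0.168 ± 0.0385 was low per length at all times.

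The EAG, ERG and ELK genes encode slow, deep-gating Kv channels that tune excitability near rest. Kcnh2 was the leading one, at 28.7, 32.6 and 32.9 FPKM at day 0, 17.3, 16.5 and 17.1 at day 3, and 23.3, 21.2 and 22 at day 21. Its groups did not overlap (-0.94 ± 0.11, edgeR adjusted p = 0.000103, and -0.63 ± 0.11, 0.00252). Kcnh1 had 4.87, 4.97 and 4.05 FPKM, then 2.03, 2.43 and 2.02, then 2.75, 2.12 and 3.34. It was lower at both later times (-1.15 ± 0.18, 0.000799, and -0.88 ± 0.18, 0.00651), and days 3 and 21 overlapped.

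Kcnh5 had 1.98, 1.89 and 2.01 FPKM at day 0, 0.474, 0.824 and 0.677 at day 3, and 2.39, 0.677 and 2.14 at day 21. It fell at day 3 (-1.62 ± 0.42, edgeR adjusted p = 0.012), and at day 21 replicates 1 and 3 stood above all day 0 libraries while replicate 2 was within day 3. Its rise from day 3 (1.33 ± 0.42, 0.0443) was called in only 1 of 9 fits without 1 library, that without day 21 replicate 2 (the 8 others 0.0612 to 0.146, with 3.13e-05 to 0.146 over all alternatives). Kcnh7, an ERG gene near 1 FPKM and under it in every group mean, was named after its values were seen. It had 0.454, 0.424 and 0.458 FPKM, then 0.283, 0.300 and 0.279, then 1.0, 0.494 and 1.15. It was the EAG-family gene that ended above day 0 (0.87 ± 0.27, 0.0415), a call lost in the same 8 fits (0.0654 to 0.127, with 1.86e-05 to 0.127 over all alternatives), and it rose from day 3 (1.55 ± 0.28, 0.00408). At day 3 it was called lower without day 21 replicate 2 (-0.68, 0.000332) and not with it (0.0791).

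Of 13 tested inward rectifiers, 6 fell and 3 rose at day 3, beside 19.5% lower and 24.8% higher among all genes tested. Those that fell include the G-protein-gated (GIRK) subunits that neurons use for slow inhibition. Kcnj6 had 1.43, 1.49 and 1.42 FPKM at day 0, 0.469, 0.384 and 0.220 at day 3, and 0.989, 0.226 and 1.18 at day 21, with day 3 far under day 0 (-2.06 ± 0.51, edgeR adjusted p = 0.00932). At day 21 it was not called (-0.97 ± 0.48, 0.162, and -0.53, 0.0727, without replicate 2). Kcnj9 fell by -1.20 ± 0.10 (1.56e-05) and was lower at day 21 (-0.61 ± 0.10, 0.00202), and Kcnj3 fell by -1.45 ± 0.34 (0.00705), although 31.1% of its exon bases overlap the antisense gene Gm26794. Kcnj3 was called lower at day 21 without replicate 2 (-0.37, 0.0149) and not with it (0.133).

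Kcnj14, a strong rectifier known from motoneurons, had 11.7, 8.41 and 8.68 FPKM at day 0, 2.83, 2.73 and 3.16 at day 3, and 6.55, 8.47 and 4.93 at day 21. It fell at day 3 (-1.77 ± 0.20, edgeR adjusted p = 0.00011) and rose again (1.12 ± 0.20, 0.00388). Its lower level at day 21 (-0.65 ± 0.19, 0.0332) overlapped day 0 and was lost in 8 of 9 fits without 1 library, all but that without day 21 replicate 2 (0.0515 to 0.142, with 0.000928 to 0.142 over all alternatives). Kcnj12, a Kir2 channel, fell by -1.23 ± 0.19 at day 3 (0.000746) and was lower at day 21 (-0.69 ± 0.19, 0.0227), the latter lost without any 1 day 0 library (0.0511 to 0.0651, with 0.00291 to 0.0745 over all alternatives). Kcnj16, a glial rectifier, was not called, with 7.18 ± 0.572 FPKM at day 0 and 6.81, 1.12 and 6.75 at day 3, where replicate 2 stood apart.

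The KATP pores moved apart. Kcnj11, the pore that neurons pair with Abcc8 (SUR1), had 18.6, 22.8 and 22.6 FPKM at day 0, 7.15, 8.32 and 6.92 at day 3, and 15.4, 7.80 and 15.4 at day 21. It fell at day 3 (-1.57 ± 0.26, edgeR adjusted p = 0.00109). Its day 21 call (-0.85 ± 0.25, 0.0338) was lost without day 0 replicate 2 or 3 or any 1 day 3 library (0.0508 to 0.1, range from 0.000463). Kcnj8, the pore of pericytes and smooth muscle with Abcc9 (SUR2), had 1.94, 1.87 and 1.59 FPKM, then 2.90, 3.23 and 3.38, then 1.93, 3.48 and 2.40. Every day 3 library exceeded every day 0 library (0.76 ± 0.20, 0.0119), and day 21 overlapped both. The day 3 call was lost without day 0 replicate 3 (0.69, adjusted p = 0.05004, with 6.8e-05 to 0.05004 over all alternatives). Summed pericyte and smooth muscle markers were 53.9 to 54.9 FPKM at day 0, 293 to 303 at day 3 and 98.7 to 118 at day 21, and their part in Kcnj8 was not tested.

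Kcnj2 (chr11:111066164-111076821), the classic Kir2 channel of muscle, endothelium, microglia and some neurons, had 1.57, 1.25 and 1.30 FPKM at day 0, 1.93, 2.05 and 1.87 at day 3, and 3.61, 3.06 and 4.03 at day 21. The 3 groups were in order without overlap. The late rise was the firmer call (1.25 ± 0.15 against day 0, edgeR adjusted p = 0.000316, and 0.80 ± 0.15 against day 3, 0.00394). The day 3 rise (0.45 ± 0.15, 0.033) was lost without day 0 replicate 2 or 3 or any 1 day 3 library (0.0671 to 0.109, range from 0.000807). Its neighbour Kcnj16 lies 38196 bases away and was not called. Microglia markers summed to 77.1 to 95.5 FPKM at day 0, 252 to 282 at day 3 and 248 to 313 at day 21. As given above, 7 of 8 skeletal muscle markers rose late. Their part in Kcnj2 was not tested.

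Kcnj13, a rectifier of epithelia and choroid plexus, had 0.299, 0.829 and 0.222 FPKM, then 0.122, 0.182 and 0.263, then 0.705, 1.26 and 1.14. It rose from day 3 to day 21 (2.36 ± 0.55, edgeR adjusted p = 0.0126), a call lost without day 3 replicate 1 or 2 (0.0506 and 0.0557, range from 0.00135), but 49.1% of its exon bases overlap Gigyf2 on the other strand, so it is uncertain. Kcnj15 showed 3 counts over the day 0 group, 181 at day 3 and 84 at day 21, a ratio of 70.8 (exact 95% interval 23.8 to 346) at day 3 and 36.0 (11.9 to 178) at day 21, on a counting interval only. Its level stayed low, at 0.174 ± 0.0407 FPKM at day 3.

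**Figure D4:**
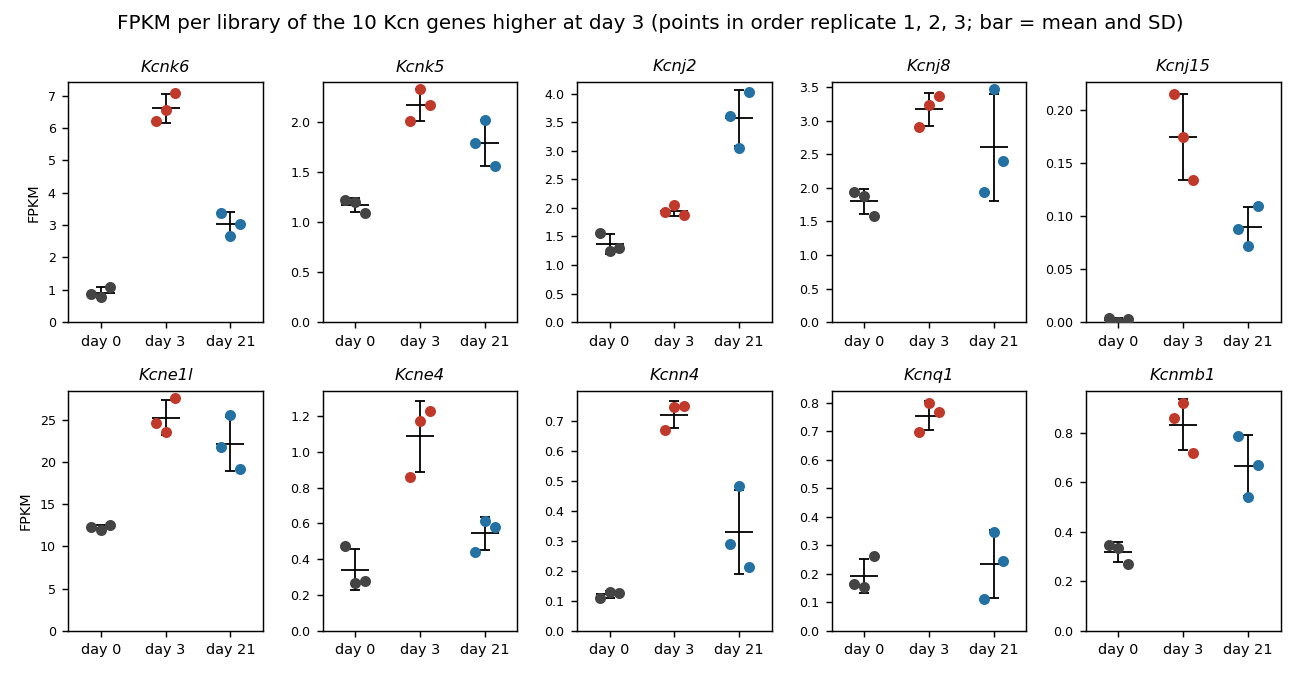
FPKM in each library for the 10 genes called higher at day 3, with black bars for the mean and SD of 3 libraries. Day 3 is the highest group in 9 panels and day 21 in the Kcnj2 panel, and Kcnj15, Kcnn4, Kcnq1 and Kcnmb1 stay under 1 FPKM.

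K2P channels carry the background leak current. Kcnk1 was the most abundant, at 56.5, 49.0 and 48.6 FPKM at day 0, 31.9, 30.6 and 32.6 at day 3, and 37.0, 40.5 and 36.7 at day 21. Its days did not overlap (-0.75 ± 0.09, edgeR adjusted p = 0.000196, and -0.56 ± 0.09, 0.00243). Kcnk9 (TASK-3) had 33.9, 37.5 and 36.2 FPKM, then 9.35, 8.21 and 8.93, then 19.8, 2.56 and 20.4. Day 3 was far under day 0 (-2.08 ± 0.58, 0.0165), a call that reached 0.0508 to 0.0584 without any 1 day 3 library (range from 6.8e-09). Day 21 replicate 2 was under all day 3 libraries, so day 21 was not called (-1.44 ± 0.56, 0.0856) but was without it (-0.95, 4.23e-05).

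The acid-sensitive Kcnk3 (TASK-1) had 11.4, 12.9 and 12.3 FPKM at day 0, 5.61, 5.80 and 6.09 at day 3, and 8.07, 6.91 and 6.96 at day 21. Its days did not overlap (-1.12 ± 0.12, edgeR adjusted p = 6.15e-05, and -0.86 ± 0.12, 0.000723). Kcnk12, a THIK subunit, had 8.62, 11.2 and 10.4 FPKM, then 6.42, 4.49 and 5.06, then 6.33, 5.36 and 6.21, lower at both times with no return (-0.98 ± 0.18, 0.00188, and -0.88 ± 0.18, 0.00601). Kcnk13, the THIK channel known from microglia, fell likewise, from 6.22 ± 0.318 to 3.67 ± 0.232 and 4.11 ± 0.434 FPKM, while the summed microglia markers given above were highest at the later times. Kcnk10 (TREK-2) and Kcnk2 (TREK-1) also fell at day 3 (-0.94 ± 0.26, 0.0171, and -0.40 ± 0.14, 0.0416). The Kcnk10 call was lost without day 0 replicate 1 or day 3 replicate 1 or 2 (0.0561 to 0.0655, range from 0.000622), and the Kcnk2 call in 6 of 9 fits without 1 library, all but those without day 3 replicate 2 or day 21 replicate 1 or 2 (0.0511 to 0.156, range from 0.00639). Kcnk4 (TRAAK), a mechanosensitive channel of nodes of Ranvier, had 3.40, 4.85 and 4.5 FPKM, then 2.28, 1.89 and 2.03, then 2.26, 3.21 and 1.35. It fell at day 3 (-1.09 ± 0.28, 0.0122), and the day 21 call (-1.03 ± 0.28, 0.0244) was lost without day 0 replicate 2 or 3 or day 21 replicate 1 (0.0611 to 0.0826, range from 0.000319).

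The K2P genes that rose were Kcnk6 and Kcnk5. Kcnk6 (TWIK-2, chr7:29221928-29232522), known as a potassium efflux channel of macrophages, had 0.855, 0.776 and 1.10 FPKM at day 0, 6.21, 6.55 and 7.10 at day 3, and 3.38, 2.66 and 3.04 at day 21. The days were well apart, day 3 7.01-fold above day 0 (2.81 ± 0.18, edgeR adjusted p = 2.41e-06) and day 21 3.06-fold above it (1.61 ± 0.17, 0.000186), with a fall between the later days (-1.20 ± 0.16, 0.000863). Kcnk5 (TASK-2), a channel of epithelia and lymphocytes, had 1.23, 1.21 and 1.10 FPKM, then 2.01, 2.34 and 2.17, then 1.79, 2.02 and 1.56. It rose at day 3 (0.83 ± 0.14, 0.00136), and its excess at day 21 (0.48 ± 0.15, 0.0357) was lost in 7 of 9 fits without 1 library, all but those without day 21 replicate 2 or 3 (0.0578 to 0.116, with 0.0136 to 0.116 over all alternatives). All 8 monocyte and macrophage markers rose at day 3 and at day 21, beside 24.8% and 17.9% of all genes tested. Fibroblast and cell division markers also rose in 8 of 8 at day 3. Endothelial, pericyte and smooth muscle, Schwann cell and microglia markers rose in 6 of 8 each. Pan-neuronal (10 of 10), oligodendrocyte (5 of 8) and skeletal muscle (4 of 8) markers were called lower. The part of any of these markers in Kcnk6 and Kcnk5 was not tested.

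Kcnk18 (TRESK), a channel of sensory ganglia, had no count at day 0, 23 at day 3 and 3 at day 21, at least 8.99-fold higher at day 3 with a floor of 3 counts over the group. It was too low to test. Peripheral sensory neuron markers summed to 56.4 to 67.0 FPKM at day 0, 132 to 135 at day 3 and 61.1 to 102 at day 21. Against day 0, 8 of 10 were called higher at day 3 and 7 at day 21, beside 24.8% and 17.9% of all genes tested. Their median log2 fold changes were 6.85 and 4.36. The list was chosen with earlier results of these data known, so these calls are not a separate test. Prph held most of the day 0 sum (mean 47.5 of 60.0 FPKM) and was not called against day 0 at either time. The part of these markers in Kcnk18 was not tested.

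Among the 4 small and intermediate conductance calcium-activated genes, 1 fell and 1 rose at day 3, which is near the shares over all genes tested (19.5% lower and 24.8% higher). Kcnn1, the neuronal SK channel with the highest level, had 5.70, 6.71 and 5.71 FPKM at day 0, 3.77, 3.78 and 3.72 at day 3, and 4.34, 4.68 and 4.5 at day 21, with no overlap (-0.74 ± 0.11, edgeR adjusted p = 0.000684, and -0.55 ± 0.11, 0.00671). Kcnn4, the intermediate-conductance channel of leukocytes and reactive microglia, ran opposite at a low level: 0.109, 0.131 and 0.125 FPKM, then 0.668, 0.746 and 0.749, then 0.289, 0.484 and 0.212. Its groups did not overlap, at 5.71-fold above day 0 at day 3 (2.51 ± 0.29, 0.000113) and 2.47-fold at day 21 (1.30 ± 0.30, 0.0112), with a fall between (-1.21 ± 0.27, 0.00963). Kcnn3 (SK3) was not called with all libraries (2.30 ± 0.162, 1.36 ± 0.0954 and 1.96 ± 1.35 FPKM) and was called lower at day 3 without day 21 replicate 2 (-0.81, 4.27e-05).

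The BK pore gene Kcnma1 measured 2.96, 3.45 and 3.31 FPKM at day 0, 1.10, 1.41 and 1.08 at day 3, and 2.78, 0.311 and 3.18 at day 21. Day 3 was wholly under day 0, and day 21 replicate 2 was at 0.104 of the mean of the other day 21 libraries. The fall of -1.49 ± 0.62 was not called (edgeR adjusted p = 0.081), and it was without that library (3.83e-06). Kcnmb4, the neuronal BK beta subunit and the BK gene with the highest mean level, had 3.23, 3.47 and 3.16 FPKM, then 4.32, 3.91 and 4.0, then 3.31, 4.86 and 3.11. Its day 3 values lay above those of day 0 without a call (0.26 ± 0.16, 0.239). Without day 21 replicate 2 it was called higher at day 3 (0.26, 0.036) and lower at day 21 than at day 3 (-0.40, 0.0113). With 31.5% of its exon bases shared with Kcnmb4os1 and Kcnmb4os2 on the other strand it is uncertain. Kcnmb1, the BK beta subunit of smooth muscle, rose from 0.317 ± 0.0407 to 0.833 ± 0.102 FPKM at day 3 (1.34 ± 0.22, 0.000913), beside the pericyte and smooth muscle markers given above. Of the sodium-activated channels, Kcnt1 (Slack) had 7.30, 6.60 and 6.35 FPKM, then 4.11, 4.07 and 4.56, then 5.84, 4.14 and 6.13, and fell at day 3 (-0.72 ± 0.16, 0.00519) without a call at day 21 (-0.45 ± 0.16, 0.0605). Without day 21 replicate 2 it was called lower at day 21 too (-0.28, 0.0108).

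Day 21 replicate 2 departed from its group gene by gene and not by a common factor. Among the 63 potassium channel genes at 1 FPKM or more in a group, 13 (20.6%) had less than 0.5 of the mean of the other day 21 libraries there, and 0 had more than double. Over all 13674 genes at that level the share under 0.5 was 8.66%, and the share above double was not computed. Replicate 2 was under both other day 21 libraries in 55.6% of the 63 genes and 43.5% of all. The median ratio was 0.902 in the 63 genes and 1.02 over all. The 13 include Kcna1, Kcna3, Kcnh5, Kcnj3, Kcnj6, Kcnk9, Kcnma1, Kcnn3, Kcnq3, Kcnq5 and Kcns2, from 0.104 (Kcnma1) to 0.471 (Kcnq5). They belong to several subfamilies, and other genes, such as Kcnab2, Kcng4 and Kcnn1, were not among them. The pan-neuronal marker sum of this library, 1940 FPKM, was the highest of the day 21 group, but its markers were split. Nefl, Nefm, Tubb3, Syp and Stmn2 were highest there, Map2, Syt1, Snap25 and Elavl4 were lowest there, and Rbfox3 lay in between. The part of neuronal content in the low channel values was not tested. The gene length implied by count and FPKM had a median of 7926 bases in the 13 and 4839.5 in the remaining genes, with Spearman's rho between length and ratio of -0.247 over the 63 genes and -0.518 over all genes, as a description of this library. The part of length in these values was not tested.

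**Figure D5:**
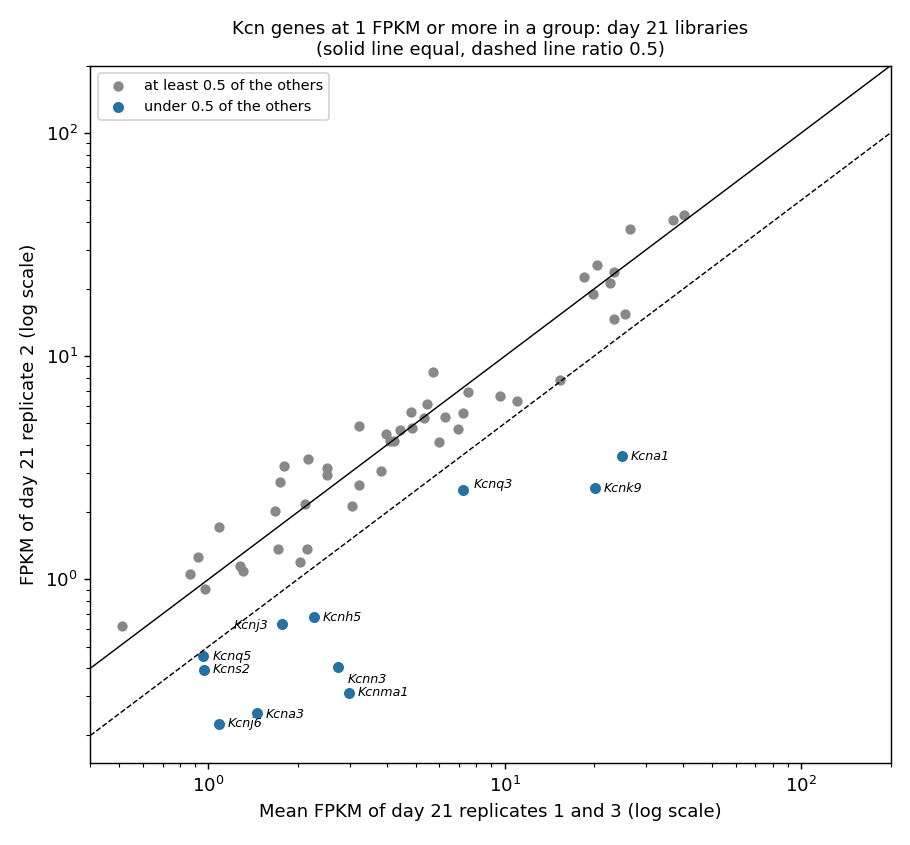
FPKM of day 21 replicate 2 against the mean of day 21 replicates 1 and 3 for genes at 1 FPKM or more in a group, on log axes, with a solid line for equality and a dashed line for a ratio of 0.5. The 11 named blue genes lie under the dashed line, and no gene plotted lies as far above the solid line.

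Partner proteins are encoded outside the Kcn family and bind the channels described above. Of 16 listed, 14 were tested, and 9 fell and 0 rose at day 3 (median log2 fold change -0.95), beside 19.5% lower and 24.8% higher among all genes tested. Those at 1 FPKM or more were the Kv4 partners Dpp6 (23.7 ± 2.2 to 12.3 ± 0.437 FPKM) and Dpp10, the juxtaparanodal Cntnap2 and Adam22, the Kv1-associated Lgi3 (137 ± 1.41 to 68.1 ± 1.36 FPKM), the Kv2 partners Amigo1 and Vapb, and the sulfonylurea receptor Abcc8 (7.64 ± 0.436 to 3.22 ± 0.303 FPKM). At day 21, 6 were lower than at day 0 and 0 higher (median -0.48), beside 11.3% and 17.9% of all genes. From day 3 to day 21, 5 rose and 1 fell, beside 11.7% and 16.1% of all genes. Abcc9, the partner of Kcnj8, fell from 3.41 ± 0.0436 FPKM at day 3 to 1.81 ± 0.655 at day 21 (-0.98 ± 0.25, edgeR adjusted p = 0.0186), with 1.06 FPKM in replicate 2.

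Genes under 1 FPKM in every group numbered 35, of which 17 were tested. Those called in some comparison include Kcnn4, Kcnq1, Kcnmb1 and Kcnj15, which rose at day 3, and Kcnh7 and Kcnq1ot1, which were higher at day 21. Kcnh8 and Kcnh3 fell at day 3 (-1.49 ± 0.26, edgeR adjusted p = 0.00133, and -1.17 ± 0.33, 0.0165), the latter lost without day 0 replicate 1 or day 3 replicate 1 or 3 (0.0631 to 0.0669, range from 0.00806). These genes were named after their values were seen. Neighbouring genes did not always change alike in their calls: Kcna2 and Kcna3 lie 63076 bases apart on chromosome 3, and Kcna3, a channel of lymphocytes and microglia, was not called at 0.872 ± 0.239, 0.595 ± 0.271 and 1.06 ± 0.70 FPKM. The difference between the neighbours was not tested.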

How the data were processed

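RNA was measured in 9 libraries of mouse spinal cord, 3 at each of 3 times. Per the labels' protocols, mRNA was selected by its poly-A tail and made into paired-end TruSeq libraries. HISAT2 and StringTie are the tools in the submitters' processing notes, with no version. The notes also name the human build GRCh38, while the loci in the deposited table are those of mouse build GRCm38. No label or header states the aligner settings, the annotation or whether strand was used in counting. The deposited table holds whole-number counts per gene and FPKM per gene for each library, per the file headers, the FPKM being the authors' count scaled by gene length and by the library total.

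Counts of all 34745 genes were filtered and tested with edgeR 4.0.16 in R 4.3.3 (TMM scaling, default expression filter, robust quasi-likelihood fit, all 9 libraries in 1 fit with 6 residual degrees of freedom). Benjamini-Hochberg adjustment ran over the 16494 genes kept, and a call was an adjusted p under 0.05, two-sided. The SE is the log2 fold change divided by the square root of F. FPKM was not used for the main calls. It served to show levels, overlap between groups and the ratios of day 21 replicate 2, and for the cut at 1 FPKM. The limma fits and 1 filter among the alternatives also used it. Where a group had no count, the fold was bounded with 3 counts in the whole group. Where it had 1 to 3, the ratio has an exact binomial interval at 95%. Both cover counting error only. The edgeR script was tested on simulated data with known changes. Sums and files were handled with Python 3.11.15, pandas 2.3.3 and scipy 1.17.1.

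The genes, their subfamilies, partner and marker lists were chosen with earlier results of these data known. Values in every library are given for called genes at 1 FPKM or more in a group, up to 12 per direction for each comparison with day 0 and up to 6 for day 21 against day 3, and for the gene of each subfamily with the highest mean. A few genes of this kind are not described here or plotted, but remain in the counts over the whole set. Further genes were named after their values were seen. Exon overlap and neighbours were taken from GENCODE M21, in which all 98 genes were found, 64 at the same locus as in the table. Of the 98, 33 overlap another gene in exons and 7 over more than 20% of exon bases.

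The alternatives were DESeq2 1.42.0, median-of-ratios scaling, no filter on low counts, a filter of 1 FPKM in 3 libraries, limma 3.58.1 on log2 FPKM with a pseudocount of 1 or 0.1, voom with sample weights, a fit of the 2 groups compared, a block for replicate number, and fits without each library in turn. Leaving out day 0 replicate 1 and day 21 replicate 2 together was added after seeing the data. Protein sequences were not used here.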

Additional observations from a re-analysis of the deposited data

Results flagged for a closer look

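For 28 of the 80 tested genes the change at day 21 differed from the change at day 3, tested directly as day 21 against day 3 in edgeR. That is 35% called, against 27.8% of all genes tested (11.7% higher and 16.1% lower). The difference between the log2 fold changes was positive in 22 genes. Among Kv pore genes it was 0.68 for Kcnc1, 1.05 for Kcnc2, 0.89 for Kcna2, 0.80 for Kcnd2, 1.33 for Kcnh5, 1.55 for Kcnh7 and 0.94 for Kcnh8. The silent subunits gave 0.62 for Kcng1, 0.47 for Kcng4 and 0.56 for Kcns3. Accessory subunits gave 0.82 for Kcnab1, 0.40 for Kcnab2, 0.60 for Kcnab3, 0.98 for Kcnip1 and 0.86 for Kcnip4.

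Among inward rectifiers and leak channels the difference was 0.80 for Kcnj2, 0.59 for Kcnj9, 2.36 for Kcnj13, 1.12 for Kcnj14 and 0.50 for Kcnk2, and it was 1.01 for the antisense RNA Kcnq1ot1. Most of these genes had fallen at day 3, while Kcnj2 had risen, and Kcnh7, Kcnj13 and Kcnq1ot1 had no call there with all libraries. In Kcnip4 the sign of the called change turned, from lower at day 3 to higher at day 21, the latter call (0.32, adjusted p = 0.0458) being lost in 8 of 9 fits without 1 library and with the replicate block (0.0969). The negative differences were -0.88 for Kcna5, -1.07 for Kcne4, -1.03 for Kcnj15, -1.20 for Kcnk6, -1.21 for Kcnn4 and -1.76 for Kcnq1. All of these except Kcna5 had risen at day 3. Day 3 against day 0 and day 21 against day 3 share the day 3 libraries, so opposite signs are partly expected.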

How the results depend on the processing

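No potassium channel gene that was called changed its direction under any alternative. Of the calls, 43 of 52 at day 3, 24 of 37 at day 21 and 16 of 28 for day 21 against day 3 held in every alternative that could test the gene. Leaving out 1 library gave 8 to 11 higher and 36 to 53 lower genes at day 3, 6 to 12 and 20 to 33 at day 21, and 13 to 45 and 4 to 10 for day 21 against day 3. Among all genes tested (16716 to 16808) the same fits gave 3504 to 5354 higher and 2361 to 4891 lower at day 3. They gave 2262 to 4207 and 1011 to 3748 at day 21, and 1006 to 3941 and 1887 to 4305 for day 21 against day 3. The filter of 1 FPKM in 3 libraries, which tests fewer genes, gave 5 higher at day 3, 5 higher at day 21 and 2 lower for day 21 against day 3. Among all 13519 genes it kept, these numbers were 3385, 2413 and 2229. For day 21 against day 3, voom with sample weights gave 48 higher and 11 lower genes. Among all 16494 genes tested it gave 4419 and 4832, against 1928 and 2657 in the main fit. Leaving out day 0 replicate 1 with day 21 replicate 2 gave 46 and 12, beside 4570 and 4802 of all 16653, and the cause was not tested. Those 2 libraries have the lowest sample weights, 0.354 and 0.0583. DESeq2 called 10 higher and 48 lower genes at day 3, 10 and 29 at day 21, and 27 and 6 between the later days. Among all 16494 genes it called 4220 and 3572, 3210 and 2288, and 2352 and 2896.

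The replicate numbers of the titles did not pair the libraries: deviations from the group means of the 9 same-numbered pairs correlated at -0.146 to 0.107, and 1 of 9 libraries correlated best with its own number. With the replicate number as a block, 9 higher and 39 lower genes were called at day 3, 7 and 23 at day 21, and 18 and 5 for day 21 against day 3. Among all 16494 genes tested the block gave 3775 and 2814, 2516 and 1318, and 1388 and 2252. Counting precision limits genes under 1 FPKM, of which 17 of 35 were tested.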
